A study of Mus musculus with 16 samples.

Results

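The genes described here encode the proteins of the cytosolic ribosome in mouse CD8 T cells. They were taken by name: every protein-coding gene whose symbol has the form of a ribosomal protein of the large subunit (Rpl) or small subunit (Rps), together with the stalk genes Rplp0, Rplp1 and Rplp2 and with Rpsa. This gave 83 of the 55335 gene identifiers counted, 51 of the large and 32 of the small subunit, spread over 19 chromosomes. The heart-type paralog Rpl3l and the testis-type paralog Rpl10l had too few reads to be tested, which left 81 genes in every fit. The naming rule uses no expression value.

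Poly-A RNA was sequenced from splenocytes of C57BL/6 mice, wild type (wt) or lacking Batf3 (BATF3-ko), that had been enriched for CD8 T cells. All cells were cultured with IL-15 at 50 ng/ml and activated with plate-bound antibody to CD3e (clone 2C11) and antibody to CD28 (clone 37.51), each at 1 µg/ml, for 48 h or 72 h. Each of the 4 groups has 4 libraries, which the submitters call technical replicates. The p-values below therefore describe how far these libraries vary, which may be technical, and not how far mice vary. Batf3 belongs to the AP-1 family of transcription factors, which bind DNA through a basic leucine zipper.

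A ribosome holds 1 copy of nearly every ribosomal protein, and cells make these proteins in balance with ribosomal RNA. Ribosomal protein mRNAs are short and abundant and begin with a run of pyrimidines, the terminal oligopyrimidine (TOP) motif, through which mTORC1 and the RNA-binding protein Larp1 control their translation. Naive T cells hold few ribosomes and build many after antigen receptor stimulation, before and during rapid division.

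The libraries held 29375818 to 39241169 counted reads. Batf3 was counted 2505 to 3441 times in the wild-type libraries at 48 h and 844 to 1139 times at 72 h, against 2 to 7 and 0 to 11 times in the knockout libraries. The 5 CD8 T cell markers summed to 1120 to 1159 CPM (counts scaled to a common library total) in the wild type and 1166 to 1250 in the knockout at 48 h, and to 1667 to 1742 against 1874 to 1999 CPM at 72 h. With time 4 of the 5 rose in the wild type and 5 in the knockout, where 33.6% and 34.4% of all tested genes were called higher. Between genotypes 2 of the 5 were called at each time, with list medians of 0.03 at 48 h and 0.13 at 72 h on the log2 scale. These were Cd3g and Cd3d, higher in the knockout at 48 h (0.31 and 0.25) and 72 h (0.54 and 0.53), while Cd8a did not pass. Cd4 stayed below 0.9 CPM in each library. A summed list of 6 B cell markers, nearly all of it Ighm, was 247 to 258 CPM in the wild type and 285 to 318 CPM in the knockout at 48 h, and 224 to 294 against 304 to 335 CPM at 72 h. The 6 myeloid markers summed to 1.33 to 2.31 against 4.01 to 5.77 CPM at 48 h and to 6.49 to 7.69 against 16.4 to 21.6 CPM at 72 h. Adgre1 was not counted in any library, and Fcgr3 and Cd68 made up most of the myeloid sum. Of the 4 NK cell markers, Klrb1c and Klre1 were higher in the knockout at 48 h (1.21 and 1.02) and 72 h (0.79 and 1.03), and Eomes, most of their sum, was lower at 72 h (-0.46). Their sums were 52.2 to 58.1 against 54.5 to 66.8 CPM at 48 h and 60.8 to 69.0 against 54.5 to 62.2 CPM at 72 h. Over all libraries the 5 dendritic cell markers summed to 3.55 to 5.99 CPM and the 5 erythroid markers to at most 0.686 CPM. The part of these markers in the results that follow was not tested. Replicate 4 of the knockout at 48 h and replicate 4 of the wild type at 72 h stood apart from their groups in how expression varied with transcript length (length slopes of 0.0344 against -0.0963 to -0.0521, and 0.0135 against 0.0697 to 0.120). Part of the results on ribosomal protein genes that change a call or an overlap without these libraries is also given without them.

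Ribosomal protein genes took up a larger share of all counted reads with time in culture and in the absence of Batf3. The 4 wild-type libraries at 48 h gave 11.4%, 10.9%, 11.7% and 12.03%, and the knockout libraries gave 13.6%, 13.4%, 12.4% and 11.8%. At 72 h the wild-type libraries gave 14.1%, 14.7%, 13.97% and 15.2%, and the knockout libraries 17.3%, 17.5%, 18.2% and 17.4%. The genotypes overlapped at 48 h (11.5% ± 0.495 against 12.8% ± 0.885, SD, n = 4), where replicate 4 of the knockout was the lowest of its group. Without that library the knockout lay at 12.4% to 13.6% (13.2% ± 0.677, n = 3) and did not overlap with the wild type. The genotypes did not overlap at 72 h (14.5% ± 0.595 against 17.6% ± 0.415), when the knockout share was 1.21 times the wild-type share. From 48 h to 72 h the share grew 1.26 times in the wild type and 1.37 times in the knockout. In bulk RNA, a difference in the number of cells of a type and a difference in such RNA per cell cannot be told apart.

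**Figure D1:**
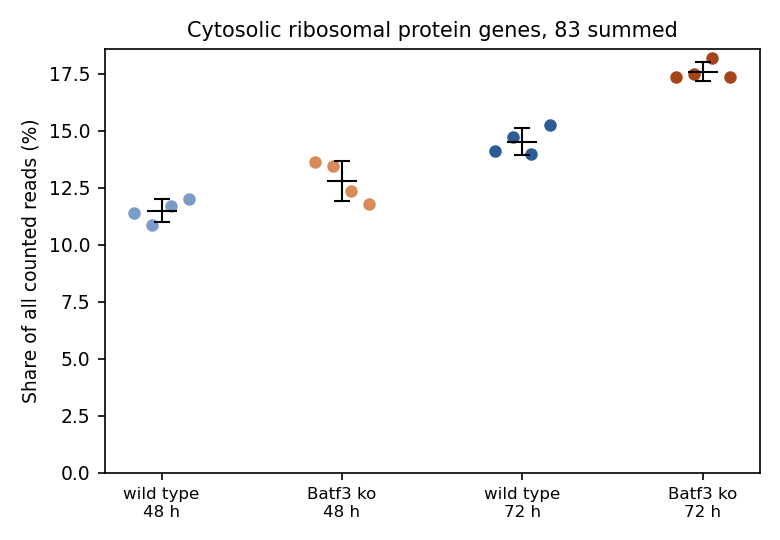
Share of all counted reads (%) that fell on the 83 cytosolic ribosomal protein genes, 1 point per library, for wild-type and Batf3 knockout cells at 48 h and 72 h, with bars for the mean ± SD (n = 4). The knockout libraries at 72 h (17.3% to 18.2%) lie above every other library. At 48 h the genotypes overlap through replicate 4 of the knockout (11.8%).

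Without Batf3, 24 of the 81 tested genes were higher at 48 h and none was lower, where 4.41% and 2.66% of all tested genes were called higher and lower (edgeR quasi-likelihood test, Benjamini-Hochberg adjusted p below 0.05 over all 15197 genes). At 72 h, 73 were higher and none was lower, against 16.9% and 19.5% of all tested genes. At an unadjusted p below 0.05, 0 genes were lower at 48 h and 1 at 72 h, and DESeq2 called 0 lower at both times. The changes were small and shared: the median log2 fold change was 0.16 at 48 h and 0.40 at 72 h, where the medians over all tested genes were 0.01 and -0.02. Without replicate 1 of the knockout at 48 h the 48 h median was 0.11, and without replicate 4 it was 0.21. A change of at least 2-fold past the threshold was seen for 1 gene at 48 h, Rpl39l, and for 2 at 72 h, Rpl39l and Rpl10a (0.645% and 2.76% of all tested genes). Large and small subunit genes moved alike, with 44 of 49 and 29 of 32 higher at 72 h and medians of 0.39 and 0.42. The CPM of the 4 knockout libraries lay wholly above those of the wild type for 25 genes at 48 h (5.69% of all tested genes) and for 58 at 72 h (8.34%). They lay wholly below for 0 genes at 48 h and for 1, Rpl7l1, at 72 h (8.76% and 26.8% of all tested genes). Without both libraries that stood apart, 36 genes lay wholly above at 48 h (8.73% of all tested genes) and 60 at 72 h (11.9%).

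The 48 h count, like that over all tested genes, changed when single libraries were left out. It was 15 without replicate 1 of the wild type at 48 h, 14 without its replicate 2, 14 without replicate 1 of the knockout and 11 without its replicate 2. Over all tested genes the same fits called 336, 379, 399 and 302 higher, against 670 in the full fit. The ribosomal protein count rose to 43 without replicate 4 of the knockout and to 46 without both libraries that stood apart. All tested genes called higher then numbered 1059 and 1379. The 72 h count stayed between 68 and 74 without any 1 library, beside 2101 to 2737 of all tested genes.

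The gene with the largest change was Rpl39l, the paralog of the exit tunnel protein Rpl39 that is known mainly from male germ cells. Its counts were 38, 21, 50 and 39 in the wild-type libraries at 48 h and 108, 129, 131 and 83 in the knockout. At 72 h they were 26, 44, 16 and 22 against 59, 123, 109 and 70. The genotypes did not overlap at either time, and the log2 fold change was 1.72 ± 0.27 (SE) at 48 h (edgeR adjusted p = 0.000166) and 1.82 ± 0.28 at 72 h (adjusted p = 2.14e-05). The level stayed low: the knockout held 1.72 to 3.72 CPM of Rpl39l, where its partner Rpl39 held 849 to 1406 CPM in the same libraries. Rpl39 itself rose too, by 0.50 ± 0.11 at 48 h (adjusted p = 0.00597) and 0.47 ± 0.11 at 72 h (adjusted p = 0.0014).

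Rpl10a, which encodes the large subunit protein uL1 of the L1 stalk beside the exit site for tRNA, changed most among the abundant genes. In the wild type at 48 h it stood at 1297, 1194, 1368 and 1464 CPM, and in the knockout at 2270, 2253, 1840 and 1966 CPM. At 72 h the wild-type libraries held 1877, 1950, 1951 and 2200 CPM and the knockout libraries 3697, 3722, 3856 and 3625 CPM. No knockout library overlapped with the wild type of its time. The log2 fold change was 0.68 ± 0.08 at 48 h (edgeR adjusted p = 4.14e-06) and 1.03 ± 0.08 at 72 h (adjusted p = 1.96e-09).

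Of the 50-base stretches in Rpl10a transcripts, 88.1% also occur in other annotated genes. Its named pseudogene Rpl10a-ps1 on chromosome 1 was counted at 461 ± 33.4 CPM in the wild type at 48 h, 728 ± 73.1 in the knockout, and 689 ± 52.3 and 1307 ± 33.1 CPM at 72 h (SD, n = 4). The ratio of pseudogene to gene was 0.340 to 0.355 in all 16 libraries. Reads of the gene and its copy cannot be told apart from gene counts.

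Next in size at 48 h were Rpl22l1 (0.55 ± 0.12, edgeR adjusted p = 0.0103), Rps27 (0.51 ± 0.09, adjusted p = 0.0015), Rpl39 (0.50 ± 0.11), Rps27a (0.48 ± 0.10, adjusted p = 0.0038), Rpl22 (0.45 ± 0.10, adjusted p = 0.00512) and Rpl36a (0.45 ± 0.09, adjusted p = 0.00478). Rps27a encodes ubiquitin fused to a small subunit protein, and Rpl22 encodes an RNA-binding large subunit protein needed for the development of αβ T cells. Rpl22l1, the paralog of Rpl22, stood at 161, 178, 180 and 200 CPM in the wild type at 48 h and 298, 282, 232 and 216 CPM in the knockout. At 72 h its wild-type libraries held 210, 240, 205 and 300 CPM and its knockout libraries 333, 320, 329 and 296 CPM, so that replicate 4 of the wild type reached the knockout range. Without it the genotypes did not overlap at 72 h (205 to 240 against 296 to 333 CPM). Both members of this paralog pair thus rose, Rpl22 by 0.53 ± 0.10 (adjusted p = 0.000155) and Rpl22l1 by 0.54 ± 0.12 (adjusted p = 0.00208) at 72 h. The 48 h call for Rpl22l1 was lost without replicate 1 (adjusted p = 0.051) or replicate 2 (adjusted p = 0.063) of the knockout.

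At 72 h the list was led, after Rpl39l and Rpl10a, by Rps27 (0.64 ± 0.09, edgeR adjusted p = 1.87e-05), Rps15a (0.61 ± 0.09, adjusted p = 2.63e-05), Rps7 (0.57 ± 0.09, adjusted p = 5.14e-05), Rpl26 (0.56 ± 0.10, adjusted p = 0.000102) and Rps18 (0.55 ± 0.09, adjusted p = 3.89e-05). Rps15a, a small subunit protein, stood at 932, 867, 927 and 994 CPM in the wild type at 48 h and 1284, 1165, 975 and 1023 CPM in the knockout, with overlap. Its 72 h libraries held 1420, 1563, 1422 and 1811 CPM in the wild type and 2111, 2118, 2286 and 2163 CPM in the knockout, without overlap. The 8 genes that did not pass the test at 72 h were Rpl14, Rpl18, Rpl28, Rpl7l1, Rplp2, Rps10, Rps13 and Rps27l, of which Rpl18 passed without replicate 4 of the knockout at 48 h (0.13, adjusted p = 0.0474). Rpl6, which passed, did not do so without replicate 4 of the wild type at 72 h (0.13, adjusted p = 0.0828).

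**Figure D2:**
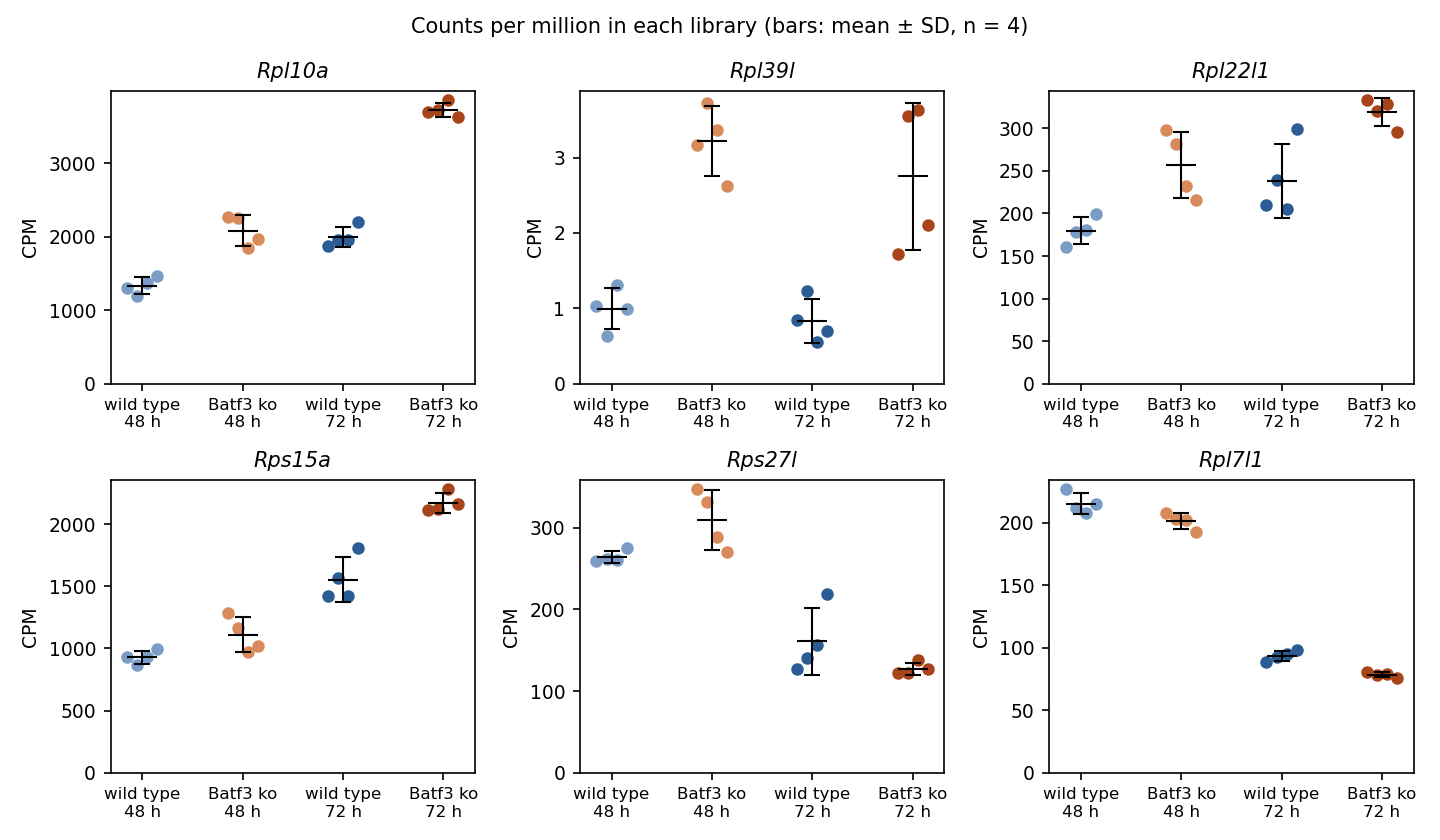
CPM in each library for 6 ribosomal protein genes (points), with the mean ± SD of each group of 4 (bars), on axes that start at 0. Rpl10a and Rpl39l separate the genotypes at both times, Rps15a rises with time in both genotypes, and Rps27l and Rpl7l1 fall from 48 h to 72 h.

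Start regions are shown for genes with the largest rises and for the 2 paralogs that fell with time, since a TOP motif lies at the first base of a transcript. Each line gives 30 bases before and 30 after a start annotated by RefSeq on GRCm38.p6, 5′ to 3′ on the gene's strand. Capitals mark the pyrimidine run CTTTC, the run CTCTTT that can overlap it, the ETS factor core written as CCGGAAG, and the TATA box letters TATAAA. They mark letters anywhere in the line. No capital run begins exactly at the annotated start, which follows the first 30 bases. In the Rps27 line the first base of the start is a c, and the second CTTTC follows it directly. In the Rps15a line the start also opens with a run of pyrimidines, which holds no capitals. Whether these are TOP starts was not tested. Rpl10a and Rps27l each have 2 annotated starts, of which the second and the first are shown. The starts shown are those with marked letters, and the other start of each gene held none in its 60 bases. Rpl22, also among the larger rises at 48 h, has 2 annotated starts with no marked letters and is not shown.
Rpl39l, chr16:10170198-10170257, plus strand: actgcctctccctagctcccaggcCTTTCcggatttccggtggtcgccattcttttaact
Rpl10a, chr17:28328535-28328594, plus strand: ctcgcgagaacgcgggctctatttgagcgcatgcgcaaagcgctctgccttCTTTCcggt
Rps27, chr3:90213619-90213678, minus strand: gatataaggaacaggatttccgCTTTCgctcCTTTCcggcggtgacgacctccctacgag
Rps15a, chr7:118116118-118116177, minus strand: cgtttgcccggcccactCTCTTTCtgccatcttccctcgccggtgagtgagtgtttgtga
Rpl22l1, chr3:28805478-28805537, plus strand: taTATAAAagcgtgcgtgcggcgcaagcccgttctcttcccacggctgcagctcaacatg
Rps27l, chr9:66946056-66946115, plus strand: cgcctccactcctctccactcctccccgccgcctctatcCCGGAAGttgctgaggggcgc
Rpl7l1, chr17:46782627-46782686, minus strand: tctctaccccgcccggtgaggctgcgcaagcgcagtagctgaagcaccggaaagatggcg

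RefSeq gave a promoter window for 63 of the 83 genes. CTTTC on the sense strand, within 50 bases of the start, was found for 32 of the 63 (50.8%) and for 14.6% of the 27025 genes with a window. CTCTTT, which can overlap CTTTC, was found for 30.2% against 4.68%, and TATAAA for 7.94% against 4.05%. In the 300 bases from 250 before to 50 after the start, on both strands, CCGGAAG was found for 41.3% of the ribosomal protein genes and 9.93% of all genes. The E-box CACGTG was found for 9.52% against 8.09%, the CRE palindrome TGACGTCA for 7.94% against 2.03%, and the AP-1 site TGAGTCA for 2 of the 63 (3.17%) against 5.95%. Among the tested genes with a window, 28 of 32 with CTTTC and 25 of 29 without it were higher in the knockout at 72 h. A match is a description of letters in the window and not a binding site.

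By role in the ribosome, the genes of the exit tunnel, through which the new protein leaves, were higher in the knockout for all 8 listed at 72 h and for 4 of 8 at 48 h (6 without both libraries that stood apart). Of all 81 ribosomal protein genes, 90.1% were higher at 72 h and 29.6% at 48 h, against 16.9% and 4.41% of all tested genes. Whether any role differed from the other ribosomal protein genes was not tested. At 72 h they ran from 0.32 ± 0.06 for Rpl4 through 0.35 ± 0.07 for Rpl19, 0.36 ± 0.07 for Rpl35, 0.45 ± 0.07 for Rpl23a, 0.46 ± 0.09 for Rpl31 and 0.48 ± 0.08 for Rpl17 to 0.56 ± 0.10 for Rpl26. Rpl5 and Rpl11, which carry the 5S ribosomal RNA into the large subunit and can bind Mdm2, both rose at 72 h, by 0.52 ± 0.08 (edgeR adjusted p = 2.64e-05) and 0.53 ± 0.08 (adjusted p = 3.31e-05). At 48 h Rpl11 rose (0.38 ± 0.08, adjusted p = 0.0069) and Rpl5 had a value of 0.23 ± 0.08 that did not pass (adjusted p = 0.086). Without replicate 4 of the knockout Rpl5 passed (0.29, adjusted p = 0.0122).

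Of the stalk genes, whose proteins recruit translation factors, Rplp1 was higher at both times (0.30 ± 0.08, edgeR adjusted p = 0.0268, and 0.48 ± 0.08, adjusted p = 7.47e-05) and Rplp0 at 72 h (0.30 ± 0.07, adjusted p = 0.000898). At 48 h Rplp0 was at 0.14 (adjusted p = 0.199), and it passed without replicate 4 of the knockout (0.21, adjusted p = 0.0118). Rplp2 was 979, 937, 1002 and 999.4 CPM in the wild type at 48 h, 962, 985, 1059 and 906 CPM in the knockout, and 1094, 1154, 1097 and 905 against 1100, 1088, 1025 and 1015 CPM at 72 h. These ranges overlapped at both times, with log2 fold changes of 0.03 ± 0.07 (adjusted p = 0.822) and 0.12 ± 0.07 (adjusted p = 0.17). The difference between Rplp2 and the other stalk genes was not tested. The 3 genes next to the peptidyl transferase centre had lower values than the exit tunnel genes at 72 h: Rpl3 0.22 ± 0.06, Rpl8 0.18 ± 0.06 and Rpl10 0.23 ± 0.06, all past the threshold, though Rpl8 did not pass without replicate 4 of the wild type at 72 h (0.14, adjusted p = 0.0629). The difference between these roles was not tested, and among other large subunit genes Rpl29, Rpl32 and Rpl9 each had 0.21 at 72 h. Of 7 genes of the decoding site and mRNA path, 1 was higher at 48 h (Rps3, 0.31 ± 0.07) and 7 at 72 h, with a median of 0.37. Of 9 genes mutated in Diamond-Blackfan anaemia, 3 were higher at 48 h and 8 at 72 h (33.3% and 88.9%). These shares stand beside 29.6% and 90.1% of all ribosomal protein genes, and 4.41% and 16.9% of all tested genes. Without replicate 4 of the knockout the 48 h counts of these last 2 groups were 5 of 7 and 7 of 9. All tested genes called higher at 48 h then numbered 1059, against 670 in the full fit.

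Both paralogs Rpl7l1 and Rps27l fell with time while their partners rose. Rpl7l1, a relative of Rpl7 that acts in the assembly of ribosomes, was 227, 211, 208 and 215 CPM in the wild type at 48 h and 88.6, 92.3, 95.2 and 97.7 CPM at 72 h. The knockout libraries held 208, 203, 202 and 192 CPM at 48 h and 80.8, 78.5, 78.8 and 75.5 CPM at 72 h. It fell with time without overlap in both genotypes, by 1.23 ± 0.06 (edgeR adjusted p = 7.23e-15) and 1.30 ± 0.06 (adjusted p = 1.42e-15), while Rpl7 rose by 0.27 ± 0.10 and 0.65 ± 0.10. The first of these did not pass without replicate 4 of the wild type at 72 h (0.17, adjusted p = 0.123).

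Rps27l, a p53-induced relative of Rps27, was 259, 262, 260 and 275 CPM in the wild type at 48 h and 127, 140, 156 and 219 CPM at 72 h. In the knockout it was 347, 332, 289 and 270 CPM at 48 h and 122, 122, 138 and 127 CPM at 72 h. It fell by 0.74 ± 0.13 (adjusted p = 8.78e-05) and 1.22 ± 0.13 (adjusted p = 1.73e-07), while Rps27 rose by 0.48 ± 0.09 and 0.60 ± 0.09. The genotypes did not differ past the threshold for Rps27l at either time (0.27 ± 0.13, adjusted p = 0.244, and -0.21 ± 0.13, adjusted p = 0.225). Without both libraries that stood apart, Rps27l was higher in the knockout at 48 h, with no overlap (0.34, adjusted p = 0.000604), and had -0.01 at 72 h (adjusted p = 0.921). Rpl3l was counted in 4 of 16 libraries, with at most 4 reads, and Rpl10l in none, which allows up to 0.0765 to 0.102 CPM per library for counting error only.

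**Figure D3:**
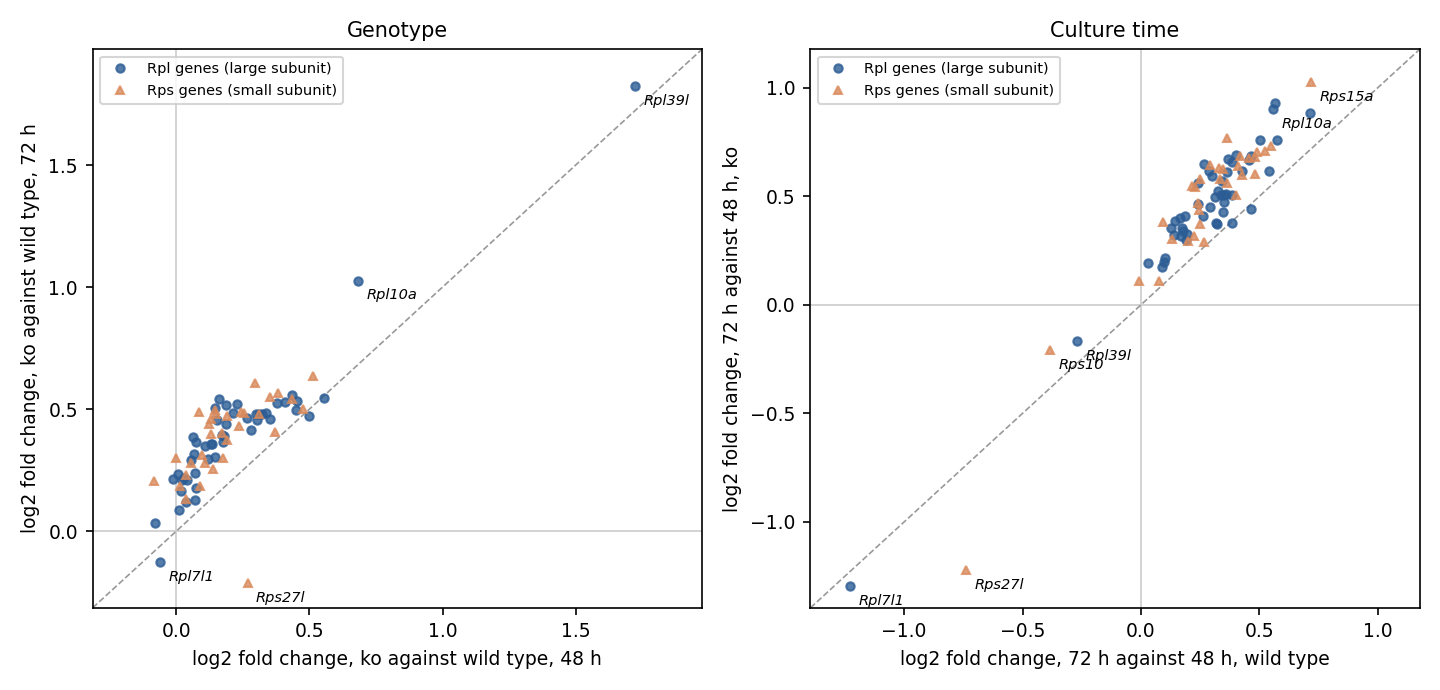
Log2 fold changes of the 81 tested ribosomal protein genes: on the left, knockout against wild type at 48 h (x) and 72 h (y); on the right, 72 h against 48 h in the wild type (x) and in the knockout (y). The dashed line marks equal values; most genes lie above it in both panels, Rpl39l and Rpl10a lead the genotype effect and Rpl7l1 and Rps27l fall with time.

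From 48 h to 72 h, 63 genes were higher and 3 lower in the wild type, where 33.6% and 29.9% of all tested genes were called. In the knockout 75 were higher and 2 lower, against 34.4% and 33.6%. The median log2 fold changes were 0.32 and 0.51, and those of all tested genes 0.05 and 0.03. Without replicate 4 of the wild type at 72 h the wild-type median was 0.25. Rpl15, Rpl22l1, Rpl7, Rps12, Rps21, Rps25 and Rps27a then lost the wild-type call, and Rpl14, Rplp2 and Rps28 gained it. Without replicate 4 of the knockout at 48 h the knockout median was 0.44, and Rpl22l1, Rplp0 and Rplp2 lost the knockout call. Among the largest rises in the wild type were those of Rps15a (0.72 ± 0.09), Rpl17 (0.71 ± 0.08), Rpl3 (0.57 ± 0.06) and Rpl10a (0.56 ± 0.08). In the knockout they included those of Rps15a (1.03 ± 0.09), Rpl10a (0.90 ± 0.08), Rpl17 (0.88 ± 0.08) and Rps3a1 (0.77 ± 0.08). Rps2, which forms part of the mRNA entry channel, did not pass in either genotype (-0.01 ± 0.06 and 0.11 ± 0.06).

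The third gene that fell in the wild type was Rps10, at only 3.91 to 5.25 CPM at 48 h and 3.03 to 4.03 CPM at 72 h (-0.38 ± 0.15, edgeR adjusted p = 0.0245). Of its 50-base stretches, 92.4% occur elsewhere, and Rps10-ps2 was counted in the wild type at 233 ± 8.28 CPM at 48 h and 317 ± 6.81 CPM at 72 h. With the pseudogene counts added to the gene the change was 0.41, so the direction for Rps10 depends on where its reads were counted. Rpl24 is low for a ribosomal protein gene as well, at 23.0 CPM per kb, and 47.0% of its exon length overlaps another gene.

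Whether the genotype effect grew from 48 h to 72 h was tested by the interaction of genotype and time. The estimate was positive for 77 of 81 genes (44.1% of all tested genes), with a median of 0.19 against -0.04. The threshold was passed by 5 genes, all in this direction, where 2.08% of all tested genes passed it upward and 3.53% downward. They included Rps3a1 (0.40 ± 0.11, edgeR adjusted p = 0.0378), Rpl37a (0.32 ± 0.09, adjusted p = 0.045) and Rps4x (0.30 ± 0.09, adjusted p = 0.0444). Rps3a1 stood at 2201, 2099, 2095 and 2275 CPM in the wild type at 48 h, 2496, 2334, 2091 and 2029 CPM in the knockout, and 2649, 2890, 2588 and 3207 against 3669, 3511, 3778 and 3636 CPM at 72 h. Its groups overlapped at 48 h and not at 72 h. Leaving out 1 library at a time gave 0 to 17 such genes, and DESeq2 gave 18. Over all tested genes, upward calls then numbered 158 to 407, and 566 with DESeq2, against 316 in the full fit. Without replicate 4 of the knockout at 48 h 1 gene passed and Rps3a1 did not (0.34, adjusted p = 0.0514), nor did Rpl37a and Rps4x. Without replicate 4 of the wild type at 72 h 17 passed, and without both 12 passed upward and 1, Rps27l, downward (-0.35, adjusted p = 0.0202).

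Ribosomal protein transcripts are short: the principal transcripts of the 83 genes had a median length of 729 bases, against 2731 bases for all tested genes, and 63 were under 1000 bases. Other genes with short transcripts were also higher in the knockout. The comparison by length took genes whose mean log2 CPM reached 4, which were 7067 others and 78 ribosomal protein genes. At 48 h the median log2 fold change of other genes fell from 0.20 under 500 bases through 0.13, 0.09 and 0.05 to 0.01 at 1500 to 2500 bases, where ribosomal protein genes had 0.30, 0.15, 0.14, 0.14 and 0.23. At 72 h the other genes gave 0.21, 0.21, 0.15, 0.09 and 0.00 in the same length classes and the ribosomal protein genes 0.46, 0.45, 0.36, 0.35 and 0.48. Other genes with long transcripts were lower in the knockout. Their medians at 2500 to 4000 bases and from 4000 bases were -0.04 and -0.09 at 48 h, and -0.08 and -0.17 at 72 h. Between 500 and 1000 bases the 2 kinds of gene differed in median by 0.02 and 0.05 at 48 h and by 0.24 and 0.21 at 72 h.

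With each library's trend over principal transcript length removed, 16 genes were higher and 1 was lower at 48 h, with 52 higher and 2 lower at 72 h (Rps27l, -0.46, and Rpl7l1, -0.21). Of all tested genes, the same step gave 4.18% higher and 2.18% lower at 48 h, and 16.4% and 16.5% at 72 h. The median fell to 0.05 at 48 h and 0.21 at 72 h. Over time this step left 73 higher in the wild type and 74 in the knockout (38.0% and 38.8% of all tested genes), with medians of 0.36 and 0.45. The median of the interaction fell from 0.19 to 0.13, where that of all tested genes was -0.02.

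**Figure D4:**
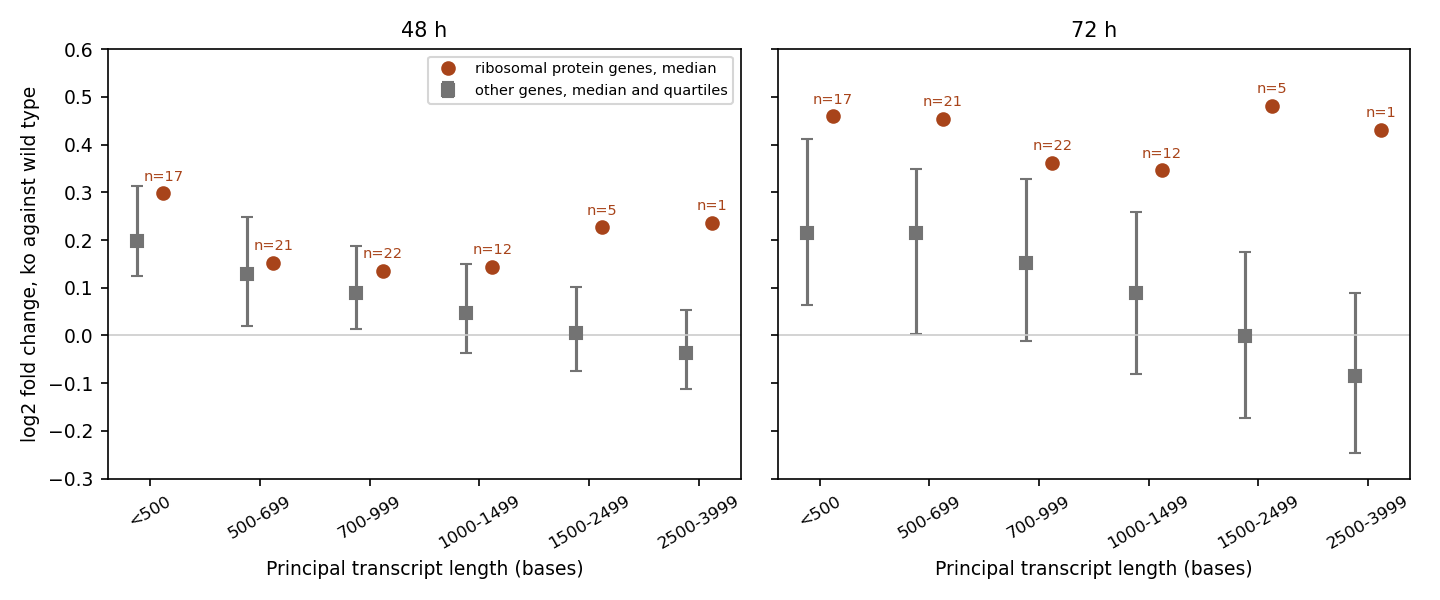
Median log2 fold change, knockout against wild type, by principal transcript length for other genes (grey, bars from the lower to the upper quartile) and for ribosomal protein genes (red, with their number), at 48 h and 72 h. Among other genes the shorter lie higher; at 72 h the ribosomal protein medians (0.35 to 0.48) lie above the upper quartile of other genes in every class shown.

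Other parts of the translation apparatus did not all move with the ribosomal proteins. The counts below stand beside 16.9% of all tested genes called higher and 19.5% lower in the knockout at 72 h, and 33.6% higher and 29.9% lower with time in the wild type. These counts and values are without length offsets. The part of transcript length in the listed genes, here and in the next paragraphs, was not tested. Of 77 mitochondrial ribosomal protein genes tested, 2 were higher at 48 h and 19 higher and 8 lower at 72 h in the knockout (medians 0.01 and 0.06). With time, 59 of them fell in the wild type and 56 in the knockout (medians -0.59 and -0.56), opposite to the cytosolic set. Of 18 chaperones of ribosomal proteins and late assembly factors, 15 fell with time in the wild type and 14 in the knockout, and 0 rose, also at an unadjusted p below 0.05. Grwd1, the histone-binding chaperone of Rpl3, fell by 2.03 in the wild type and 2.35 in the knockout, and Heatr3, which imports Rpl5, by 1.78 and 2.03. In the knockout at 72 h, 7 of the 18 were lower and 3 higher, among them Grwd1 (-0.50), Tsr1 (-0.46), Rrs1 (-0.42) and Pdcd2l (0.42).

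Among other RNAs with a TOP start, 10 of 12 were higher in the knockout at 72 h and none lower (median 0.45, with 0 lower also at an unadjusted p below 0.05). At 48 h 2 of 12 were higher (Snhg1 0.47, Tpt1 0.33). Tpt1, the translationally controlled tumour protein, stood at 3066 ± 127 CPM in the wild type at 48 h and 3759 ± 329 in the knockout, and at 4060 ± 473 and 5913 ± 187 CPM at 72 h (0.67, edgeR adjusted p = 1.9e-06). Snhg1 (0.65) and Gas5 (0.59), both host genes of small nucleolar RNAs, rose as well. Of 4 ribosomal protein genes with other names, 3 were higher at 72 h, among them Fau (0.42) and Rack1 (0.37).

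Of 36 initiation factors, 10 were higher and 8 lower at 72 h in the knockout (27.8% and 22.2%, against 16.9% and 19.5% of all tested genes), with Eif4a2 at 0.67, Eif4g1 at -0.61, Eif4g3 at -0.60 and Eif3m at 0.47, and 2 were lower at 48 h (Eif5b -0.26, Eif4g1 -0.23). With time 23 fell and 7 rose in the wild type (63.9% and 19.4%, against 29.9% and 33.6%), Eif4g1 by the most among them (784 ± 22.2 to 296 ± 21.1 CPM). Of 7 elongation factors 3 were higher in the knockout at 72 h (Eef1a1 0.27, Eef1b2 0.26, Eef2 0.18). With time Eef2 and Eef1a1 rose in the wild type (0.75 and 0.74) while Eif5a fell (-1.05).

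**Figure D5:**
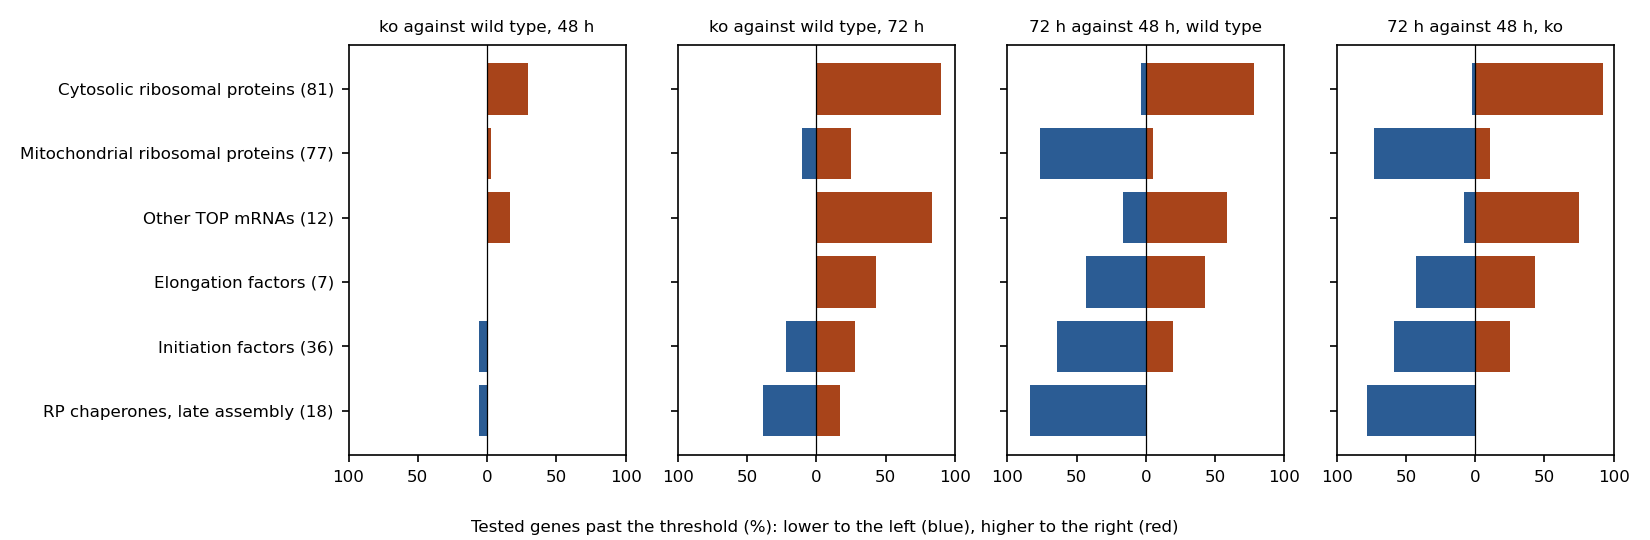
Share of the tested genes of each list (number in brackets) that were called higher (red, to the right) or lower (blue, to the left) by the edgeR quasi-likelihood test in the 4 comparisons. Cytosolic ribosomal protein genes and other RNAs with a TOP start (labelled other TOP mRNAs) lie mainly to the right in each comparison. Mitochondrial ribosomal proteins and assembly factors lie mainly to the left over time.

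Regulators of mTORC1 and of TOP mRNAs were lower in the knockout at 72 h for 12 of 31 (38.7%) and higher for 4 (12.9%), against 19.5% and 16.9% of all tested genes. The largest values were those of Pdcd4, an inhibitor of Eif4a (-0.63), Eif4ebp2 (-0.51), Larp4b (-0.40) and Lamtor5 (0.40). Chosen after their values were seen, Larp1 had -0.29 (edgeR adjusted p = 0.0049) and Mtor -0.35 (adjusted p = 0.0044). The part of the length trend, by which long transcripts were lower in the knockout, was not tested for these lists. At 48 h 3 were higher (Ddit4, an inhibitor of mTORC1, 0.40, Eif4ebp1 0.27 and Rheb 0.26) and 2 lower (Sesn3 -0.30 and Pdcd4 -0.22), with a median of -0.05. Of 16 genes of the p53 pathway, 6 were lower and 2 higher at 72 h (37.5% and 12.5%), with Zmat3 at -0.57, Phlda3 at -0.49, Aen at -0.48 and Pmaip1 at 0.47. Of 11 genes of ribosome rescue and collision, 4 were lower (36.4%) and none higher, also at an unadjusted p below 0.05 (Gcn1 -0.63, Usp10 -0.51, G3bp1 -0.42, Ltn1 -0.33). Of 10 transcription factors with sites at ribosomal protein promoters, Mycn (0.71) and Max (0.18) were higher and Hcfc1 (-0.42) and Myc (-0.33) lower, which is 20% each way and near the share of all tested genes.

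Among the ribosomal protein genes themselves, the level per kilobase of principal transcript spanned a wide range. The mean over all libraries was highest for Rplp1 (6365 CPM per kb), Rpl41 (6059), Rps2 (5262), Rps18 (4771) and Rps12 (4550). The lowest tested genes were Rpl39l (3.54 CPM per kb), Rps10 (8.61), Rpl24 (23.0), Rpl7l1 (112) and Rpl13a (170), of which Rps10, Rpl24 and Rpl13a overlap another gene over 20.6%, 47.0% and 35.4% of their exons. Of the 83 genes, 48 shared at least 50% of their 50-base stretches with other genes. Genes above and below that share had like medians in the knockout at 72 h (0.40 for 48 genes and 0.43 for 33).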

How the data were processed

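The table deposited by the authors gives raw counts, whole numbers of reads for each gene, in 16 libraries made from 100 ng of RNA with a stranded poly-A kit per the labels' protocols. The submitters' processing notes name GRCm38, featureCounts, STAR 2.7 and bcl2fastq 2.2.0. How featureCounts treated strand and multiply matching reads, and with which annotation, is not given in the sources used here. CPM are counts over column sums. Genes passing edgeR's filterByExpr (minimum count 10; 15197 genes) were fitted over all 16 libraries in 4 groups with TMM scaling and the quasi-likelihood test (edgeR 4.0.16, R 4.3.3), with Benjamini-Hochberg adjustment over all tested genes and a threshold of 0.05. The script was tested on simulated data. DESeq2 1.42.0 was an alternative. Lengths and shared 50-base stretches came from GENCODE M21, which holds 55154 of the 55335 identifiers. Members, gene lists, roles and the libraries left out together were chosen with earlier results of these data known. Named were up to 8 largest changes per genotype comparison, 5 per direction over time, 4 for the interaction, members of fixed roles, the 5 highest and 5 lowest per kb, and up to 4 per list; some genes that this rule names are not reported here. Offsets for principal transcript length, the addition of pseudogene counts, and overlaps and role counts without the libraries that stood apart were chosen after seeing the data. Replicate numbers did not pair libraries.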

Additional observations from a re-analysis of the deposited data

Results flagged for a closer look

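Of 160 groups of 4 libraries checked, 6 held a library whose gap to the nearest other was above Dixon's 95% critical value, and chance gives about 1 in 20. The share of reads on ribosomal protein genes in the knockout at 72 h had replicate 3 high at 18.21%. The same library was high for Rpl17 (2941 CPM) and Rps7 (2875 CPM). Replicate 4 of the knockout at 48 h was low for Rpl37a (570.8 CPM), and replicate 4 of the wild type at 72 h was low for Rplp0 (4858 CPM) and high for Rplp1 (3308 CPM).

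The genotype effect differed between 48 h and 72 h by the interaction test of edgeR for, among others, Rps3a1 (0.4047 on the log2 scale), Rpl37a (0.3222) and Rps4x (0.3027).

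Outside the 83 genes, the named ribosomal protein pseudogenes took 1.325% of counted reads in the knockout at 48 h and 1.823% at 72 h, above the 1.161% and 1.511% of the wild type.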

How the results depend on the processing

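Of 3215 values recomputed for 111 results, 3036 kept their direction and their side of the threshold, 98 lost a call, 49 gained one, and 32 changed sign. Genes called lower in the knockout numbered 1 at 48 h with principal transcript length offsets, and at 72 h 2 with library-size scaling, 1 without a filter, 1 with exon length offsets and 2 with principal length offsets. Genes called for the interaction numbered 1 higher and 1 lower with library-size scaling, 18 with DESeq2, 13 and 1 without a filter, 8 and 1 with exon length offsets, 7 and 1 with principal length offsets, 9 with scaling that left the members out, 12 and 1 without both libraries that stood apart, and 0 with the replicate block. Without 1 library at a time, the higher counts ran from 11 to 43 at 48 h (46 without both libraries that stood apart) and from 0 to 17 for the interaction. Over all tested genes they ran from 302 to 1059 at 48 h (1379 without both) and from 158 to 407 for the interaction. The replicate numbers did not pair the libraries: 24 same-number pairs correlated at -0.218 to 0.104, and 3 of 16 libraries matched their own number best. The replicate block gave 21 genes higher at 48 h, 73 at 72 h, and 62 and 75 over time.

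The share of reads was 12.58%, 14.11%, 16.04% and 19.64% (wild type and knockout at 48 h, then at 72 h) among protein-coding reads, 12.66%, 14.13%, 16.03% and 19.42% with pseudogenes added, and 18.52% in the knockout at 72 h with effective library sizes. Library-size scaling moved the median of all genes by -0.13 at 72 h and called 1464 genes higher and 4779 lower, against 2565 and 2961, and 534 and 572 at 48 h, against 670 and 405. It left 24 ribosomal protein genes higher at 48 h and 59 at 72 h. Their interaction median was 0.10 with this scaling, against -0.13 for all tested genes.

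The values that changed sign were mostly near 0. At 48 h Rpl10 was -0.0075 with median-ratio scaling and with DESeq2, -0.029 with library-size scaling, -0.011 with the members left out of the scaling, -0.041 with exon and -0.11 with principal length offsets, and ran from -0.015 to 0.040 without single libraries. Rps4x at 48 h was 0.0043 with a minimum count of 50, 0.00071 with pseudogenes added, 0.050 without both libraries and from -0.044 to 0.050 without single libraries. Rplp2 was -0.0016, -0.013 and -0.17 at 48 h with library-size scaling, exon and principal length offsets, from -0.0062 to 0.086 without single libraries, and -0.0074 and -0.18 at 72 h with the first and the last. Rpl3 at 48 h was -0.0069 with library-size scaling, -0.018 with principal length offsets and from -0.011 to 0.070 without single libraries. Rpl19 was -0.010 and -0.022 with the length offsets, Rpl23a -0.020 with the second of them, Rplp0 over time in the wild type -0.0058 without a filter, Rpl39l over time in the knockout from -0.32 to 0.0025 without single libraries, and Rps10 over time in the wild type 0.41 with pseudogenes added. The cause was not tested. Depth limits Rpl39l, Rps10, Rpl3l and Rpl10l.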
